A study of Mus musculus with 2 samples.

Results

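The conventional dendritic cells with little or no Fscn1 numbered 53 of the 24044 cells in a primary tumour library and a lymph node library of mice with EO771-HEVM3 tumours. A cell was taken as a member when it had over 200 detected genes, at most 5% mitochondrial transcripts, at least 2 transcripts of Flt3, Xcr1, Clec9a and Cd209a together and at least 10 of H2-Aa, H2-Ab1 and Cd74 together. It also had at most 1 transcript of Fscn1, at most 1 of the T cell genes Cd3d, Cd3e and Cd3g, at most 1 of the B cell genes Cd79a and Cd79b, 0 of Siglech and under 5 of C1qa, C1qb and C1qc. Transcripts were counted as unique molecular identifiers (UMIs). Of the 53 cells, 28 held Xcr1 or Clec9a without Cd209a (Xcr1/Clec9a cells), 21 held Cd209a without Xcr1 or Clec9a (Cd209a cells), 2 held both and 2 held Flt3 alone. The cells were thus chosen by the UMIs of these genes, whose values are given here as a description only.

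EO771 cells come from a mammary cancer of the mouse. The HEVM3 cells were derived from them by repeated passage in mice of cells that had left lymph nodes through high endothelial venules, by which lymphocytes enter the nodes. Primary tumours and paired lymph nodes of 6 C57BL/6J mice were each made into 1 droplet-based library. All mice carried HEVM3 tumours, no tumour-free node or tumour of another line was among these libraries, the labels name no sort, age or treatment, and no label ties a cell to a mouse. The tumours were digested with collagenases and hyaluronidase, and the nodes with another collagenase, dispase and DNase for a shorter time, so tissue, digestion and library cannot be told apart. With 1 library per tissue no test was run, and values in brackets are 95% intervals, exact Poisson for UMIs per 1000000 (CPM) and Clopper-Pearson for a share, which cover counting error only.

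Conventional dendritic cells take up antigen and present peptides to T cells. They fall into cDC1, which depend on the transcription factors IRF8 and BATF3, carry XCR1 and the dead-cell receptor CLEC9A and are known for presenting taken-up antigen to CD8 T cells on MHC class I, and cDC2, which carry SIRPA and, in part, CD209a and the lectins MGL2 and CLEC10A and are known for presentation to CD4 T cells. FLT3 is the growth factor receptor of the lineage. On maturation, dendritic cells raise CCR7, the receptor that guides them to the T cell zone of lymph nodes, together with costimulatory molecules such as CD80, CD86 and CD40, and the actin-bundling protein fascin encoded by Fscn1. The cells described here are those with Fscn1 at or near 0.

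The 6 promoters below belong to genes used to describe the 2 kinds of cell, of which Xcr1, Clec9a and Cd209a entered the rule and Wdfy4, Ppt1 and Mgl2 did not. Mgl2 did not set the kinds apart by cell. In the primary tumour it was found in 3 of 3 Xcr1/Clec9a cells and 7 of 12 Cd209a cells, and in the lymph node in 4 of 9 Cd209a cells. Each promoter window runs from 250 bases before to 50 after the RefSeq start in GRCm38.p6, on the strand of the gene. WDFY4 is needed for cross-presentation by cDC1, PPT1 is a lysosomal thioesterase, and MGL2 is a lectin for galactose-type sugars. In these windows 4 short motifs were sought on both strands, and capitals mark the matches. They were TGANTCA for AP-1, GAAA followed after any 2 bases by GAAA for the interferon-stimulated response element, GGAA followed after any 2 bases by GAAA for the PU.1-IRF composite element, and AGGAAGT for PU.1, of which the last pair share the core GGAA.
Xcr1: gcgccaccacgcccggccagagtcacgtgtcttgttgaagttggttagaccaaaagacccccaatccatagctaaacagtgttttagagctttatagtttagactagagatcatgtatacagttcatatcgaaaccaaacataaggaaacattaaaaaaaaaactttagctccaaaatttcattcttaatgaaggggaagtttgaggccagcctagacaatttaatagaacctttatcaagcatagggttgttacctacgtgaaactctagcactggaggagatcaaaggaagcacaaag
Clec9a: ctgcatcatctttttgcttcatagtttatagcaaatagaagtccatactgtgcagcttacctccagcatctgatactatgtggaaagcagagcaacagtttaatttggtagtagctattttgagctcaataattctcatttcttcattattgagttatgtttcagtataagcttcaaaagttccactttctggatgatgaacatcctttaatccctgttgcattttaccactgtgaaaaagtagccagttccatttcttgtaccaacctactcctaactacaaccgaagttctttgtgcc
Wdfy4: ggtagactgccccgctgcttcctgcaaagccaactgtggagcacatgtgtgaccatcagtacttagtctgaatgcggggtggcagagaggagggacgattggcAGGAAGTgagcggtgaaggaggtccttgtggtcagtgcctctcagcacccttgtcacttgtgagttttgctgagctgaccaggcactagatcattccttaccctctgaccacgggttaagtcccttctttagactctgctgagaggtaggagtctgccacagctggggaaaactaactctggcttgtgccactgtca
Ppt1: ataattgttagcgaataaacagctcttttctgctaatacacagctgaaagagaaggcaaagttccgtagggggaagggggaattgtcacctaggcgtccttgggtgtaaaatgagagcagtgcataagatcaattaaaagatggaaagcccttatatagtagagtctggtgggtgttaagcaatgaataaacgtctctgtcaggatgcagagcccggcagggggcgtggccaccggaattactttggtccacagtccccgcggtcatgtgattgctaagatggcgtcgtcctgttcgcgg
Cd209a: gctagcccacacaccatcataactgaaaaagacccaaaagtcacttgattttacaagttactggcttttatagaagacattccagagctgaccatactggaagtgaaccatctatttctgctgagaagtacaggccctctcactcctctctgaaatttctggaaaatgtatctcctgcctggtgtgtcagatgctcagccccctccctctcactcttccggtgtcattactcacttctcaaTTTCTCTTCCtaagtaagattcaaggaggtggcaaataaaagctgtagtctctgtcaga
Mgl2: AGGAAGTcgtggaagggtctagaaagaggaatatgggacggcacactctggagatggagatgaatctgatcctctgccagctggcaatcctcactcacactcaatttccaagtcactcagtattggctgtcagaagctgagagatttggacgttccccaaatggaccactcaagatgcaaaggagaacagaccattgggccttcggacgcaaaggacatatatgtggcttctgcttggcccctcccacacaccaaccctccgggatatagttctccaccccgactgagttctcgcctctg
The windows were chr9:123861980-123862279 (minus strand) for Xcr1, chr6:129408612-129408911 (plus) for Clec9a, chr14:33185017-33185316 (minus) for Wdfy4, chr4:122835977-122836276 (plus) for Ppt1, chr8:3748935-3749234 (minus) for Cd209a and chr11:70130107-70130406 (plus) for Mgl2. The PU.1 letters stood in the Wdfy4 window with their first base at -147 from the start and in the Mgl2 window at -250. The composite letters stood in the Cd209a window on the opposite strand, as TTTCTCTTCC from -9. None of the 4 motifs had a match in the windows of Xcr1, Clec9a or Ppt1, which says only that these letters were not there. Among 32851 RefSeq promoter windows of 27025 genes, 9.35% held the PU.1 letters, 2.72% the composite, 3.44% the response element and 7.81% the AP-1 letters. A match is a description of the sequence, and no factor binding was measured.

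The primary tumour library held 12427 cells and 173317475 UMIs, and the lymph node library 11617 cells and 122207852 UMIs. After the limits on genes and mitochondrial transcripts, 9989 and 11269 cells were kept, with medians of 11167 and 2655 UMIs. The members were 15 primary tumour cells (0.150% of the kept cells [0.0841-0.248]) and 38 lymph node cells (0.337% [0.239-0.463]). Of the kept cells with a transcript of the leukocyte gene Ptprc, members were 13 of 2087 (0.623%) in the primary tumour and 34 of 7504 (0.453%) in the lymph node, so the order of the tissues depended on the denominator. The libraries shared 47 barcodes, of which 0 belonged to a member.

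The kind with the most members differed between the libraries. In the lymph node, 25 of 38 members were Xcr1/Clec9a cells (65.8% [48.6-80.4]) and 9 were Cd209a cells (23.7% [11.4-40.2]). In the primary tumour, 3 of 15 were Xcr1/Clec9a cells (20% [4.33-48.1]) and 12 were Cd209a cells (80% [51.9-95.7]). These kinds are set by genes of the rule, so the shares are a description. When each cell was thinned to 2000 UMIs before the rule, 2 of 8 primary tumour and 7 of 11 lymph node members were Xcr1/Clec9a cells. The cells with both kinds of marker and those with Flt3 alone all came from the lymph node.

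The depth behind the 4 groups differed. The 25 lymph node Xcr1/Clec9a cells held 260060 UMIs (median 10979 per cell) and the 9 lymph node Cd209a cells 59866 (median 5830). The 12 primary tumour Cd209a cells held 48420 (median 2765.5). The 3 primary tumour Xcr1/Clec9a cells held 41269, 18611 and 5719, so that 1 cell gave 62.9% of that group's UMIs. A sum of 0 UMIs allowed up to 11.5 CPM in the lymph node Xcr1/Clec9a cells, 50.1 in the lymph node Cd209a cells, 62 in the primary tumour Cd209a cells and 45.7 in the primary tumour Xcr1/Clec9a cells.

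Fscn1 stood at 0 in all 53 members. The nearest cells kept out by Fscn1 alone had 3 UMIs in the lymph node and 6 in the primary tumour, and 12 and 5 cells were kept out in this way. The sum of the 4 dendritic cell genes was exactly 2 in 4 primary tumour and 7 lymph node members, and 23 and 18 further cells that met every other limit had a sum of 1. In the lymph node, 6 cells missed only the T cell limit, 11 only the B cell limit and 16 only the Siglech limit. The C1q genes stood at 0 in 12 of the 15 primary tumour members, with 1, 1 and 3 UMIs in the others, and at 0 in 37 of 38 lymph node members.

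The name of conventional dendritic cells was checked against genes outside the rule. Zbtb46, a transcription factor of conventional dendritic cells and their precursors, had 3 UMIs in the lymph node Cd209a cells, 2 in the primary tumour Cd209a cells, 1 in the primary tumour Xcr1/Clec9a cells and 0 in the lymph node Xcr1/Clec9a cells, too few to place any group. Itgax, which encodes the integrin CD11c, was found in 12 of 25 and 7 of 9 lymph node cells and in 3 of 3 and 6 of 12 primary tumour cells of the 2 kinds. Flt3 itself was found in 20 of 25 lymph node Xcr1/Clec9a cells (31 UMIs), 6 of 9 lymph node Cd209a cells (8 UMIs) and 2 of 3 primary tumour Xcr1/Clec9a cells (5 UMIs). It was found in 0 of 12 primary tumour Cd209a cells, which therefore entered through Cd209a alone and are named here by that gene.

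Markers of macrophages and monocytes moved with the Cd209a cells. Of the 16 genes of that list, 13 lay outside the rule. The 16 genes summed to 3658 CPM in the lymph node Cd209a cells (1408 to 9477 per cell), 1508 in the primary tumour Cd209a cells (0 to 4086), 1007 in the lymph node Xcr1/Clec9a cells (0 to 3140) and 442 in the primary tumour Xcr1/Clec9a cells. Csf1r, the receptor for the macrophage growth factor, had 12 UMIs in 5 of 9 lymph node Cd209a cells and 7 in 5 of 12 primary tumour Cd209a cells, against 0 in the 25 lymph node Xcr1/Clec9a cells. Other genes of that list were also found in the lymph node Cd209a cells, with 115 UMIs of Lyz2, 68 of Plac8, 10 of Ccr2 and 8 of Cx3cr1, and Mrc1 had 13 UMIs in 7 of 12 primary tumour Cd209a cells. Fcgr1, Vcan and Chil3 had 0 UMIs in all 4 groups, and Adgre1 had 1 in the lymph node and 4 in the primary tumour Cd209a cells. The part of such cells in the results on Cd209a cells was not tested.

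The 2 lymph node cells with both kinds of marker are described apart. They held 9 and 11 UMIs of Bst2 and 1 and 7 of Tcf4, genes that plasmacytoid dendritic cells also carry, with 0 of Irf8 and 0 of Ppt1, and 1 of them held 15 UMIs of Ly6c2. Most of these traits were also seen in other members. Lymph node Cd209a cells held up to 6 UMIs of Bst2 and 7 of Tcf4, with 0 of Irf8 in 8 of 9 and 0 of Ppt1 in all 9. The primary tumour Xcr1/Clec9a cells held 1 to 42 of Bst2 and 0 to 14 of Tcf4. In the 2 cells H2-Eb1 stood at 1 and 4 UMIs, against lymph node medians of 100 in Xcr1/Clec9a and 51 in Cd209a cells. Of the 2 cells with Flt3 alone, 1 held 8 UMIs of Ppt1, 1 of Wdfy4 and 2 of Itgae, and the other held 2 of Wdfy4 and 0 of the other 2 genes. These 4 cells entered no comparison between groups.

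In the lymph node, the Xcr1/Clec9a cells carried the cDC1 programme beyond the genes that chose them. Of 14 cDC1 genes outside the rule, 8 had at least 20 UMIs in the 2 groups together, and all 8 were at least 2-fold higher in Xcr1/Clec9a than in Cd209a cells, with a median log2 ratio of 2.68. Over all 1965 genes counted in this comparison, 13.8% were at least 2-fold higher and 9.52% at least 2-fold lower, with a median of 0.00. Ratios are of summed CPM, with 0.5 count added to each sum. A gene that reached 20 UMIs only through the group where it is high had to differ, so these counts are a description.

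Ppt1 (chr4:122836242-122859175) had a UMI in each of the 25 Xcr1/Clec9a cells, with 1 to 25 per cell and a median of 6, and 0 in the 9 Cd209a cells, at least 15.6-fold higher. Wdfy4 (chr14:32959547-33185508) likewise had 1 to 12 UMIs in each of the 25 cells, with a median of 4, and 4 UMIs in 4 of 9 Cd209a cells (log2 ratio 2.65 [1.42, 4.71]). The Xcr1/Clec9a cells were the deeper (median 10979 against 5830 UMIs). For Ppt1 their lowest cell stood at 1 UMI, and for Wdfy4 the groups overlapped at 1 UMI. These 2 genes, which were not in the rule, were the ones seen in every Xcr1/Clec9a cell among the cDC1 genes. The lymph node T cells, taken as cells with at least 2 UMIs of the Cd3 genes and a median of 3159 UMIs, had a Ppt1 UMI in 10.3% and a Wdfy4 UMI in 0.475%. After each cell was thinned to 1000 UMIs, the shares for Ppt1 were 53.0% of Xcr1/Clec9a and 2.39% of T cells, and for Wdfy4 38.6% and 0.121%.

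Irf8, the transcription factor that cDC1 depend on, had 106 UMIs in 18 of 25 Xcr1/Clec9a cells, with 0 to 21 per cell and a median of 2. The 9 Cd209a cells had 7, all in 1 cell (log2 ratio 1.71 [0.71, 3.15]). Cadm1, an adhesion molecule of cDC1, had 71 UMIs in 19 cells against 2 in 1 cell, and its log2 ratio was 2.72. Id2, a repressor of E proteins needed for cDC1 development, had 146 against 10 (1.68), and Naaa, a lysosomal amidase, 68 against 6 (1.28). Cd8a, which marks resident cDC1 of lymphoid organs, had 49 UMIs in 18 of 25 cells against 0 (at least 3.76-fold), and the uptake receptor Ly75 23 in 13 cells against 0. Batf3, below the count for a ratio, had 15 UMIs in 9 of 25 cells against 0. Itgae, which encodes CD103 of migratory cDC1, was found in 5 of 25 cells with 7 UMIs, and all 5 of these cells also held Cd8a.

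By the ranking over all genes, those highest in the Xcr1/Clec9a cells stood at 0 in the Cd209a cells. Ifi205, an interferon-inducible gene, had 144 UMIs in 20 cells (at least 11.0-fold), and Dnase1l3, an extracellular DNase, 106 in 18 cells (at least 8.13-fold). Ncoa7 had 111 UMIs in 17 cells and Gpd2, the mitochondrial glycerol phosphate dehydrogenase, 66 in 22 cells. Rab7b, a GTPase of endosomal traffic, had 58 in 20 cells and Jdp2, an AP-1 family repressor, 53 in 16 cells. Cxcl9, the interferon-gamma-induced chemokine that draws T cells, had 126 UMIs in 12 of 25 cells (at least 9.67-fold). These genes were spread over many cells apart from Cxcl9, for which 13 of 25 cells stood at 0 and 1 cell held 52 UMIs.

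**Figure D1:**
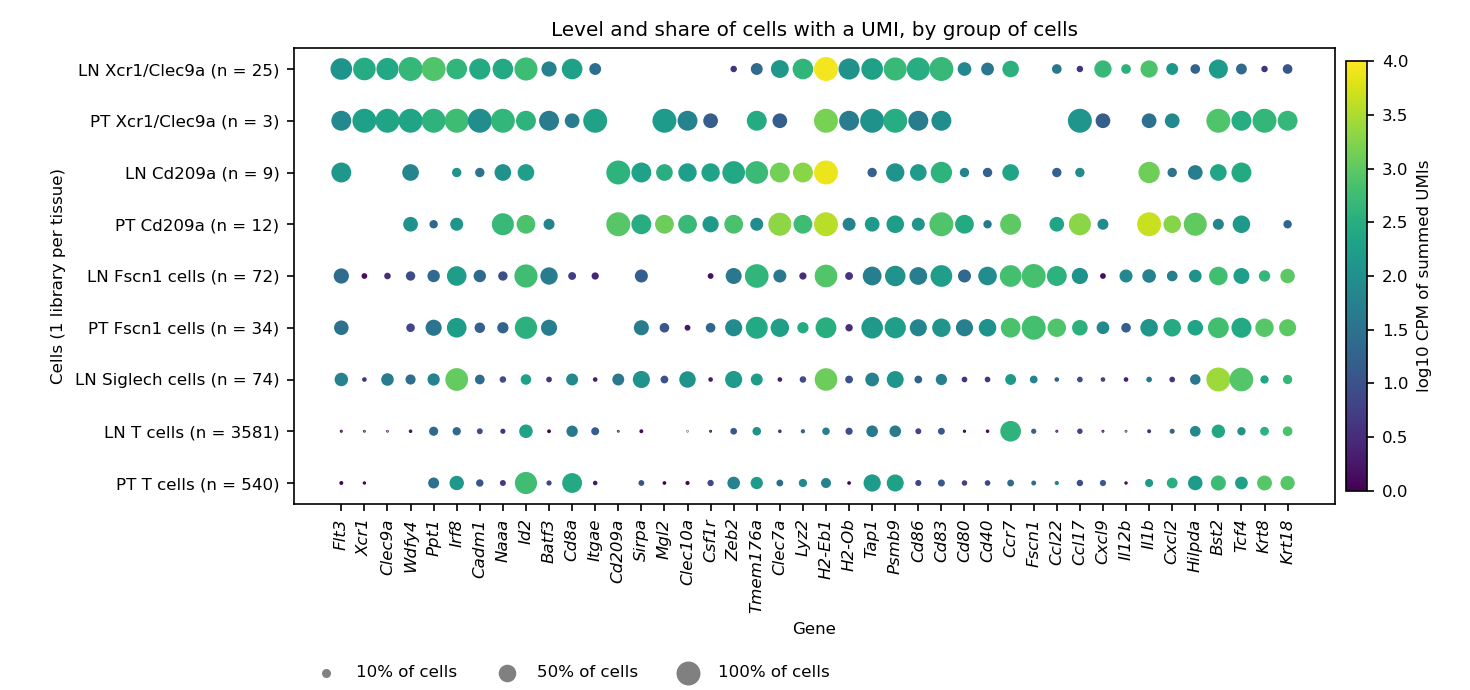
Dot plot of 42 genes in the Xcr1/Clec9a, Cd209a and Fscn1 cells of both libraries, the lymph node Siglech cells and the T cells of both libraries. Dot size is the percent of cells with a UMI and colour is log10 CPM of the summed UMIs. Ppt1 and Wdfy4 have full-size dots in the row of lymph node (LN) Xcr1/Clec9a cells (25 of 25 cells each), and of the Ccl17 dots that of the primary tumour (PT) Cd209a cells is brightest (10 of 12 cells).

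In the lymph node the counted cDC2 genes went both ways between the 2 kinds. Some genes of cDC2 and of other myeloid cells with fewer UMIs, found in part of the Cd209a cells, were at or near 0 in the Xcr1/Clec9a cells. Of 18 cDC2 genes 4 were counted, with a median of -0.48. Clec12a (log2 ratio 1.48) was higher in Xcr1/Clec9a cells, Klf4 (-1.90) and Tmem176a (-4.40) were lower, and Rbpj (0.94) was within 2-fold. Without the lymph node Cd209a cell highest in Hspa1a, 2 of the 4 were higher and 2 lower, with a median of -0.014. Of all 1965 genes counted with that cell, 13.8% were higher and 9.52% lower. Klf4 turned to 2.45 when each cell was thinned to 2000 UMIs before the rule. The genes named next had fewer than 20 UMIs in both groups together and were not counted. Sirpa, the inhibitory receptor by which cDC2 are sorted, had 12 UMIs in 6 of 9 Cd209a cells and 0 in the 25 Xcr1/Clec9a cells, at least 17.4-fold lower in the latter. Mgl2 (chr11:70130329-70137550) had 19 in 4 cells, of which 12 in 1 cell, against 0 (at least 27.5-fold), and Clec10a 10 in 5 cells against 0. Zeb2, a transcription factor of cDC2 and monocytes, had 15 UMIs in 8 of 9 cells against 1 in 25 (log2 ratio -5.49). Cx3cr1, Ccl9 and Nrp2 also stood at 0 in the Xcr1/Clec9a cells. These genes were at or near 0 in every Xcr1/Clec9a cell. They also stood at 0 in part of the Cd209a cells, from 1 of 9 for Zeb2 and 3 of 9 for Sirpa to 5 of 9 for Mgl2 and 7 of 9 for Nrp2, so the 2 kinds overlapped at 0. Irf4, not counted either, had 3 UMIs in 1 cell of each kind.

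By the same ranking, S100a4 (chr3:90603771-90606045), a calcium-binding protein of motile and myeloid cells, was lowest in Xcr1/Clec9a relative to Cd209a cells. It had 185 UMIs in 9 of 9 Cd209a cells and 8 in 5 of 25 Xcr1/Clec9a cells (log2 ratio -6.57 [-7.88, -5.64]). Ccl3, left out of the ranking because 1 cell held 16 of its 22 UMIs, lay at -7.61, and at -5.98 without that cell. Wfdc17 had 32 UMIs in 9 of 9 cells against 1 in 25 (-6.56). Fcer1g, the signalling chain of activating Fc receptors, had 82 in 9 of 9 cells against 19 in 12 of 25 (-4.20). Tmem176a had 31 in 8 cells against 6 in 5 (-4.40), and Il7r 18 in 3 cells against 3 (-4.52). Cybb, the catalytic subunit of the phagocyte NADPH oxidase, stood at 17 in 7 cells against 1, below the 20 UMIs needed to be counted (-5.66). Lyz2, the lysozyme of myeloid cells, was found in both kinds, with 115 UMIs in 6 of 9 and 109 in 18 of 25 cells (-2.20). Of the 115 UMIs 74 came from 1 cell, without which the ratio was -0.94.

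**Figure D2:**
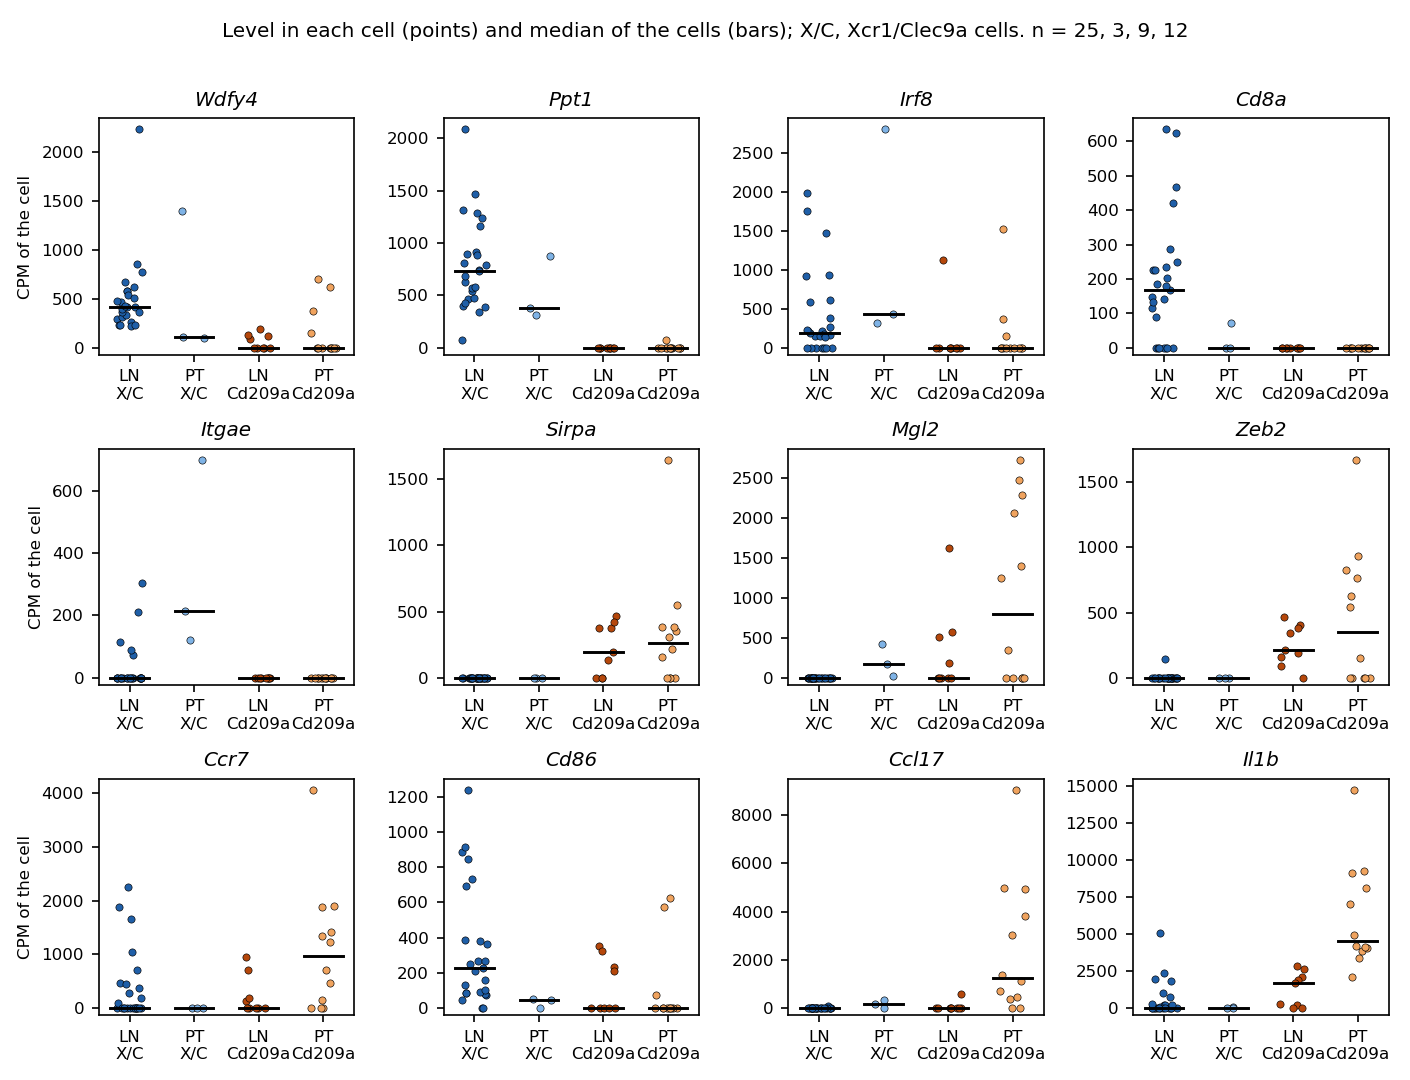
CPM of 12 genes in each cell of the 4 groups, with 25 and 9 lymph node and 3 and 12 primary tumour cells of the Xcr1/Clec9a and Cd209a kinds, and a bar at the median. Wdfy4 and Ppt1 are above 0 in every Xcr1/Clec9a cell, and Il1b is above 0 in all 12 primary tumour Cd209a cells.

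Antigen presentation genes had a median log2 ratio near 0 in both pathways, with -0.036 for MHC class II and -0.030 for MHC class I. For class II, H2-Eb1 differed little between the lymph node Xcr1/Clec9a and Cd209a cells (log2 ratio 0.13 [-0.02, 0.28]), and so did H2-DMb1 (0.07), which helps to load peptide on class II. Of the 8 class II pathway genes counted, 1 was at least 2-fold higher and 3 at least 2-fold lower. The higher one was H2-Ob, which restrains peptide loading, with 28 UMIs in 19 of 25 cells against 0. The lower ones were the lysosomal protease Ctss (-1.69), the thiol reductase Ifi30 (-1.32) and H2-DMb2 (-1.99). For class I, 3 of 8 genes counted were at least 2-fold higher and 0 lower, beside 13.8% higher and 9.52% lower among all genes counted. Tap1, a subunit of the peptide transporter, had 48 UMIs in 20 cells against 1 (2.90), and the immunoproteasome subunits Psmb9 and Psmb8 had log2 ratios of 1.97 and 1.04, the latter 0.97 without its highest cell. The class I chains H2-K1 (-0.26) and B2m (-0.43) were not higher.

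Of the 6 maturation and costimulation genes counted, 0 were at least 2-fold higher and 1, Marcksl1, was lower in the Xcr1/Clec9a cells (-1.23, and -0.71 without its highest Cd209a cell). Of all 1965 genes counted, 13.8% were higher and 9.52% lower. Marcksl1 turned to 0.38 when each cell was thinned to 2000 UMIs before the rule. Cd86 stood just under 2-fold, with 82 UMIs in 23 of 25 cells against 9 in 4 of 9 (log2 ratio 1.00 [0.07, 2.25]). Cd83 (0.31), Cd274 (0.24) and Ccr7 (0.69 [-0.11, 1.70]) differed by less. Cd80 had 18 UMIs in 7 of 25 cells against 4 in 1 of 9, and Cd40 10 in 6 cells against 1. Il12b, which encodes a subunit of interleukin 12, was found in 3 of 25 Xcr1/Clec9a cells with 81, 8 and 3 UMIs and in 0 of 9 Cd209a cells. Il1b had 195 UMIs in 12 cells against 78 in 7 (-0.80), and 1 Xcr1/Clec9a cell held 106 of them.

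Maturation genes were uneven among the 25 lymph node Xcr1/Clec9a cells, although Fscn1 was 0 in each. Ccr7 had 94 UMIs in 11 cells, of which 4 cells held 14, 20, 18 and 20, and no other cell held more than 5. In these 4 cells Cd86 stood at 12, 11, 7 and 11 UMIs, against a median of 2 over the 25, and Cxcl9 at 52, 0, 29 and 25. Cxcl9 was found in 6 of the 11 cells with Ccr7 (114 UMIs) and in 6 of the 14 without (12 UMIs), so it was about as frequent in both but higher where Ccr7 was found. Cd80 was found in 5 of 11 and 2 of 14, and Cd40 in 4 of 11 and 2 of 14. Plac8 had 37 UMIs in 7 of the 11 cells with Ccr7 and 82 in 11 of the 14 without. These groups held 110384 and 149676 UMIs, and 1 cell held 30 of the 119 Plac8 UMIs, so no direction is read from it. The median depth was 10852 and 11259.5 UMIs. No test was made, since the cells come from 1 library.

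**Figure D3:**
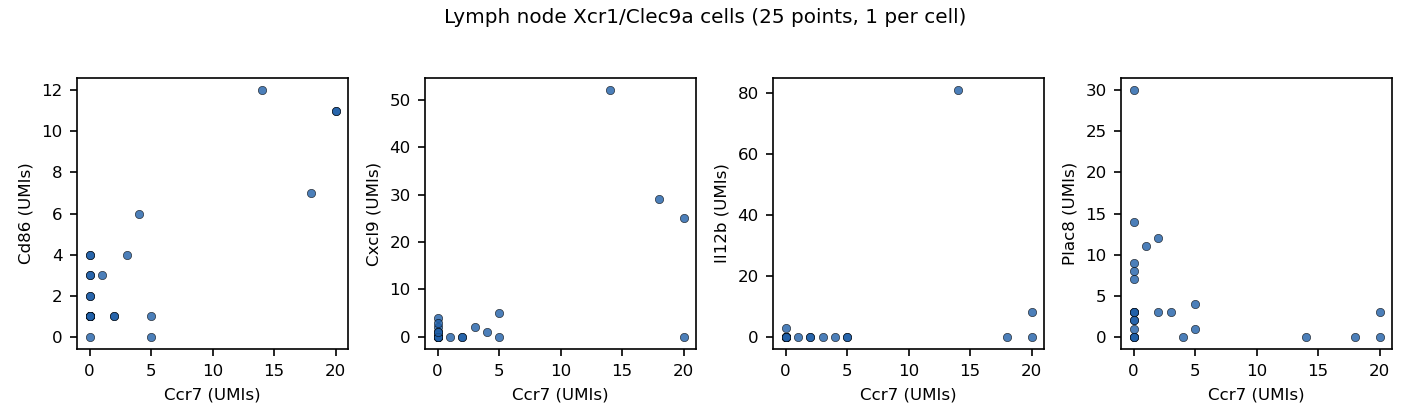
UMIs of Cd86, Cxcl9, Il12b and Plac8 against UMIs of Ccr7 in each of the 25 lymph node Xcr1/Clec9a cells, 1 point per cell. The 4 cells with 14 to 20 Ccr7 UMIs hold 7 to 12 of Cd86, and 3 of them hold 25 to 52 of Cxcl9.

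A few of the lymph node Xcr1/Clec9a cells carried genes of dividing cells. Mki67, a marker of cycling cells, had 24 UMIs in 5 of 25 cells, of which 14 and 7 came from cells of 20798 and 14290 UMIs. The first of these also held 26 UMIs of Top2a, 38 of Stmn1 and 17 of Pclaf, and the second 1, 12 and 9. The 9 Cd209a cells had 5 Mki67 UMIs in 1 cell. Of 9 cell cycle genes counted, 1 was at least 2-fold higher and 1 lower in Xcr1/Clec9a cells, close to the 13.8% higher and 9.52% lower among all 1965 genes counted.

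**Figure D4:**
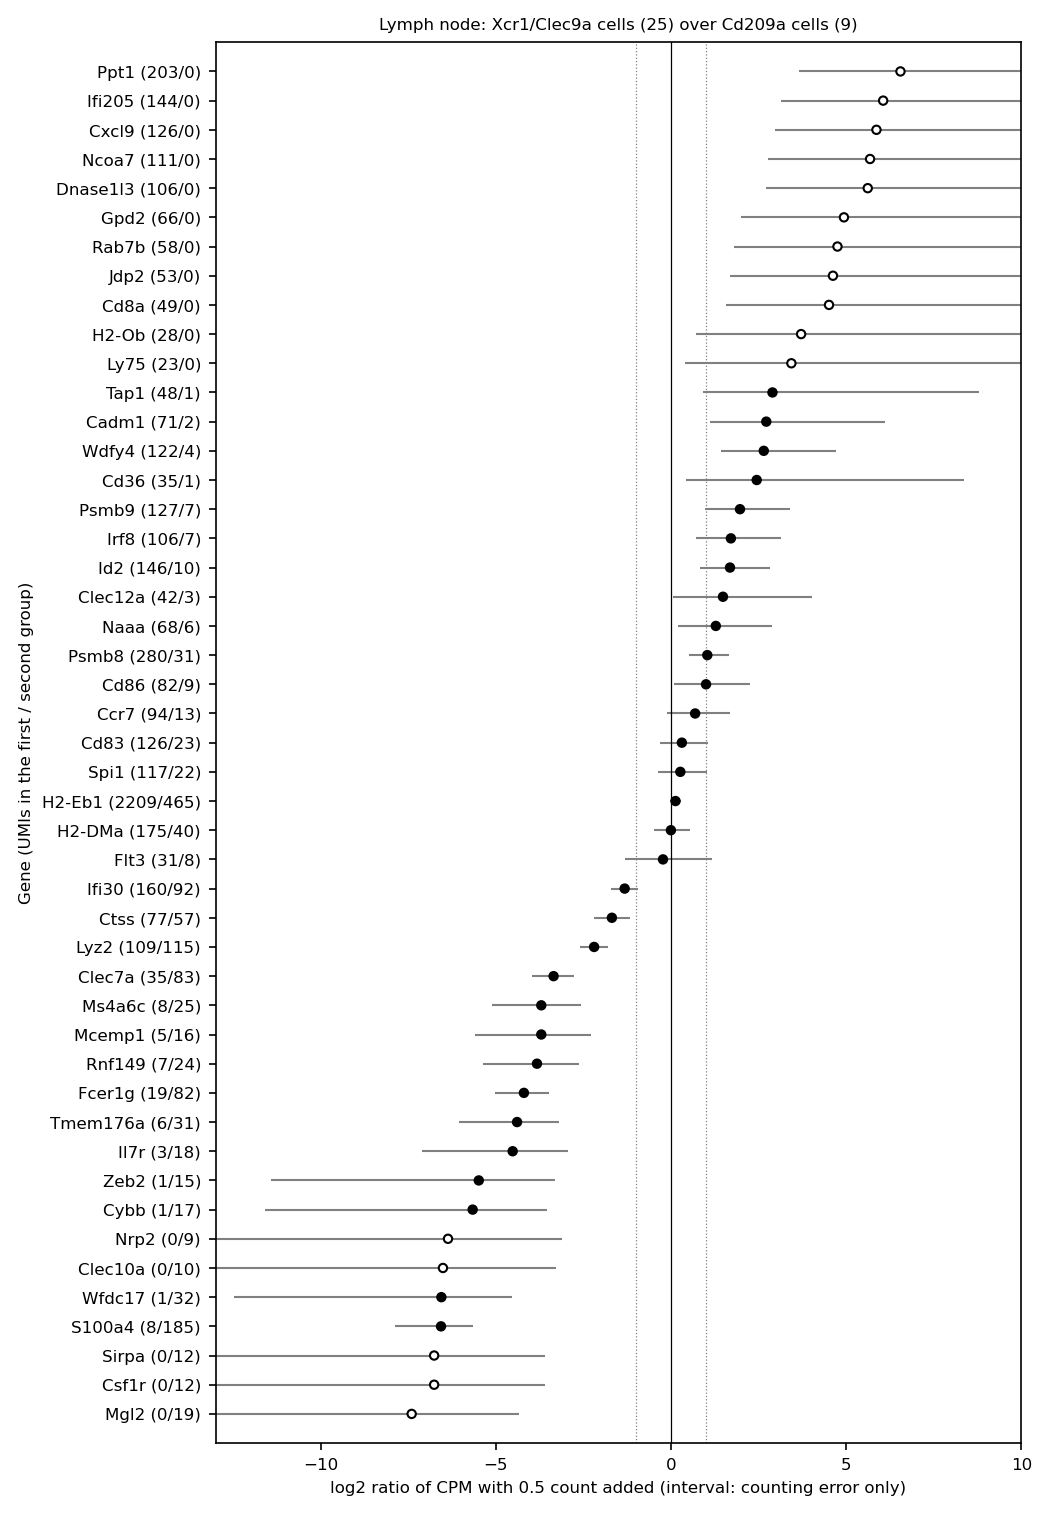
Log2 ratio of Xcr1/Clec9a over Cd209a cells in the lymph node for genes of the lists and the ranking, with exact 95% intervals for counting error and dotted lines at 2-fold. Open points had 0 UMIs in a group, where the ratio depends on the added 0.5 count and the interval runs past the axis. Wdfy4 (2.65) and Irf8 (1.71) lie to the right and S100a4 (-6.57) and Zeb2 (-5.49) to the left, while H2-Eb1 (0.13) lies near 0.

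The Cd209a cells were the kind with 9 or more members in both tissues. Those of the primary tumour held more transcripts of the chemokine Ccl17, of Il1b and of Ccr7. Over the 777 genes counted, 6.56% were at least 2-fold higher and 17% at least 2-fold lower in the lymph node, and the median was -0.11. Of 8 chemokine genes counted, 2 were higher and 4 lower in the lymph node, and the higher ones, Ccl3 and Ccl4, rested on 1 cell described below. Ccl17 (chr8:94810453-94812036), a ligand of CCR4 on T cells, had 98 UMIs in 10 of 12 primary tumour cells, with 19, 0, 2, 14, 16, 14, 0, 3, 22, 1, 6 and 1 per cell, against 5 in 1 of 9 lymph node cells. This was 2024 CPM against 83.5, a log2 ratio of -4.47 [-6.25, -3.33]. The groups overlapped, since 2 primary tumour cells stood at 0 and 1 lymph node cell at 5. The primary tumour T cells had a Ccl17 UMI in 3.89% (0.609% when thinned to 1000 UMIs), against 66.8% of the Cd209a cells when thinned.

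Il1b, the pro-inflammatory cytokine, was found in every primary tumour Cd209a cell, with 9 to 29 UMIs and a median of 20. In the lymph node it was found in 7 of 9 cells, with 0 to 30 and a median of 8, although these cells were the deeper. The levels were 4688 CPM in the primary tumour against 1303 in the lymph node (log2 ratio -1.84 [-2.24, -1.47]), and the groups overlapped. Ccr7 had 50 UMIs in 9 of 12 primary tumour cells and 13 in 4 of 9 lymph node cells, or 1033 against 217 CPM (-2.21 [-3.25, -1.35]). The highest primary tumour cell held 17 UMIs of Ccr7 and the highest lymph node cell 6. Of 4 maturation genes counted, Ccl17, Ccr7 and Cd83 (-1.02) were lower and Marcksl1 (1.12, and 0.61 without its highest cell) was higher in the lymph node. Of all 777 genes counted, 17% were lower and 6.56% higher. Cd80 had 13 UMIs in 7 of 12 primary tumour cells and 4 in 1 of 9 lymph node cells.

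Other chemokines rested on few cells. Cxcl2, a neutrophil-attracting chemokine, had 91 UMIs in 6 of 12 primary tumour cells against 2 in 1 lymph node cell (-5.50), and 64 of the 91 came from the deepest cell of 13770 UMIs. Ccl6 had 77 in 5 cells against 13 in 2 (-2.83), and 61 of the 77 came from the same cell. Without it the ratios were -4.25 for Cxcl2 and -1.08 for Ccl6. Ccl22, the other CCR4 ligand, had 10 UMIs in 4 primary tumour cells against 1 in the lymph node.

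By the ranking with the same limit on 1 cell, AA467197 was lowest in the lymph node, with 104 UMIs in 11 of 12 primary tumour cells against 1 in 9 lymph node cells (-6.43 [-12.3, -4.50]). Gda, guanine deaminase, had 34 UMIs in 11 of 12 cells against 0 (at least 14.0-fold lower in the lymph node). Hilpda, a lipid droplet protein induced by hypoxia, had 51 in 11 cells against 3 in 3 (-4.19), and Ndrg1, another hypoxia-induced gene, 45 in 10 cells against 4 (-3.64). The transcription factor Bhlhe40 had 58 in 10 cells against 4 (-4.01), Tnip3, an inhibitor of NF-kB signalling, 39 in 9 cells against 3 (-3.80), and the metallothionein Mt2 22 in 4 cells against 1 (-4.21). All but Mt2 were found in at least 9 of 12 primary tumour cells.

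Lipid and hypoxia genes were lower in the lymph node in 3 of 5 counted and higher in 1, beside 17% and 6.56% of all 777 genes counted. Genes high in 1 tissue reached the minimum of 20 UMIs mostly through it, so this is a description. The lower ones were Hilpda, Fabp5, a fatty acid carrier with 33 UMIs in the primary tumour against 6 (-2.67), and Ldha, lactate dehydrogenase, with 36 against 16 (-1.45). Hmox1, haem oxygenase, was the higher in the lymph node (1.51), but 29 of its 33 UMIs came from 1 cell, without which the ratio was -1.25. Vegfa had 11 UMIs in the primary tumour against 3, below the count for a ratio, and Ptgs2, the inducible cyclooxygenase, 29 against 7 (-2.28).

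Of 9 cDC2 genes counted, 4 were lower and 2 higher in the lymph node Cd209a cells, with a median of -0.99. Of all 777 genes counted, 17% were lower and 6.56% higher. Mgl2 had 62 UMIs in 7 of 12 primary tumour cells, up to 34 in a cell, against 19 in 4 of 9 lymph node cells, up to 12 in a cell (-1.99, and -1.34 without its highest cell). Clec10a had 24 in 7 cells against 10 in 5 (-1.53, and -0.94 without its highest cell). Zeb2 also lay lower (-1.46), but 23 of its 34 primary tumour UMIs came from 1 cell, without which the ratio was -0.36. Sirpa differed by less than 2-fold, with 15 UMIs in 8 cells against 12 in 6 (-0.62). Klf4, a factor of cDC2 subsets, lay higher in the lymph node (1.38, and 0.65 without its highest cell). The directions of Clec10a, Klf4 and Hmox1 reversed when each cell was thinned to 2000 UMIs before the rule was applied. Presentation genes were near level. H2-DMa (-0.44), B2m (0.03) and Ctss (-0.40) differed by less than 2-fold, and H2-Eb1 was higher in the lymph node, with 465 UMIs against 182 (1.04 [0.80, 1.30]), or 0.88 without its highest cell.

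Genes of stress and tissue dissociation were higher in the lymph node Cd209a cells in 8 of 10 counted (median 2.72), beside 6.56% of all genes counted, and 1 cell carried much of this. Hspa1a, a heat shock protein, had 75 UMIs in 3 of 9 lymph node cells against 0 in 12 primary tumour cells, and 64 of the 75 came from a cell of 6208 UMIs. The same cell held 58 of 70 Jun UMIs, 63 of 75 Ccl4 UMIs, 16 of 22 Ccl3 UMIs and all 7 Irf8 UMIs of the group. Without it, 3 of 5 stress genes counted were higher and 1 lower (median 1.50), the log2 ratio of Jun went from 3.66 to 1.33, and Ccl4 went from 2.41 to -0.03. Hsp90aa1 was found in 8 of 9 lymph node cells, but 76 of its 124 UMIs came from 1 of them, and its log2 ratio was 2.90 with that cell and 1.70 without it. Ubb, which encodes polyubiquitin, had a UMI in all 9 lymph node cells (2.89). Stress genes were lower in lymph node Xcr1/Clec9a than Cd209a cells in 10 of 12 counted (median -1.77), and without this cell in 3 of 12 (median -0.62), where 9.52% of all genes counted were lower with the cell included. The 2 tissues were digested with different enzymes, and the part of this in the stress genes was not tested.

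**Figure D5:**
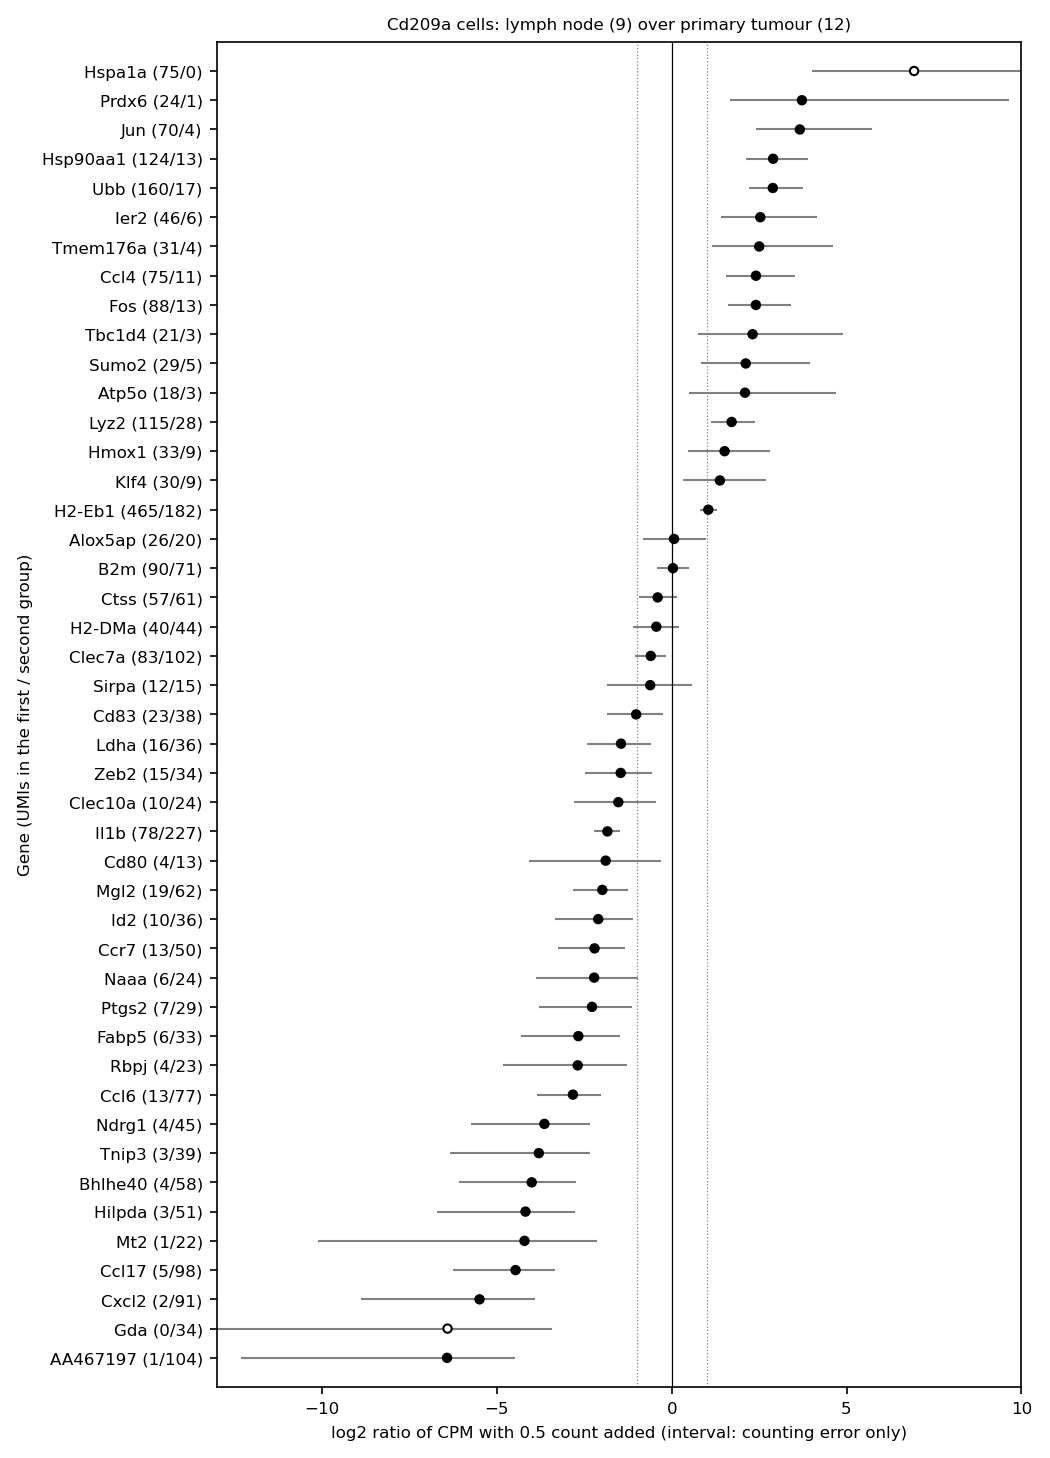
Log2 ratio of lymph node over primary tumour in Cd209a cells (9 and 12 cells) for genes of the lists and the ranking, with exact 95% intervals for counting error and dotted lines at 2-fold. Open points had 0 UMIs in a group, where the ratio depends on the added 0.5 count and the interval runs past the axis. Ccl17 (-4.47), Ccr7 (-2.21) and Il1b (-1.84) lie to the left and H2-Eb1 (1.04) and Jun (3.66) to the right.

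The 3 primary tumour Xcr1/Clec9a cells also carried cDC1 genes outside the rule. Ppt1 had 13, 7 and 5 UMIs in the cells of 41269, 18611 and 5719 UMIs, Wdfy4 4, 2 and 8, Irf8 13, 8 and 16, and Naaa 13, 5 and 10. Each was thus found in all 3 cells. Genes of other dendritic cells were found too, with 10 UMIs of Mgl2 in 3 of 3 cells and 4 of Clec10a in 2 of 3. Bst2 and Tcf4, carried also by plasmacytoid dendritic cells, had 51 UMIs in 3 of 3 and 20 in 2 of 3. Of these, 1 cell held 42 and 14. Both were lower in the lymph node Xcr1/Clec9a cells (log2 ratios -2.37 and -3.64). The T cells of the primary tumour had 0 UMIs of Wdfy4 in 540 cells and 30.0 CPM of Ppt1, against 213 and 381 CPM in the Xcr1/Clec9a cells. By cell, Wdfy4 was 96.9 and 107 CPM in the 2 deepest, which held 35 and 23 UMIs of the keratins Krt8 and Krt18, and 1399 in the third. No group of cancer or stromal cells was compared. Itgae had 5, 4 and 4 UMIs, or 198 CPM [106-339], against 26.9 [10.8-55.5] in the lymph node cells. Cd8a went the other way, with 3 UMIs in 1 of 3 cells (45.7 CPM) against 188 CPM in the lymph node cells. That cell was the one of 41269 UMIs, with 35 keratin UMIs, and Cd8a stood at 0 in the cell of 5719 UMIs, with 1 keratin UMI. The intervals of Itgae lay apart, but they are of sums that include the 2 cells with more keratin UMIs.

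The cells of the primary tumour had fewer class II transcripts. H2-Eb1 had 46, 30 and 25 UMIs, or 1540 CPM against 8494 in the lymph node Xcr1/Clec9a cells. Over the 2089 genes counted, 20.8% were at least 2-fold higher and 22% at least 2-fold lower in the lymph node (median -0.14), and 6 of 7 class II pathway genes and 5 of 5 maturation genes counted were higher there. The lymph node group held 260060 UMIs and the primary tumour group 65599, so genes such as Ccr7, with 94 UMIs against 0, reached the 20 UMIs only through it, and the counts are a description. Ccl17, not counted, went the other way, with 8 UMIs in 3 of 3 primary tumour cells against 1 in the 25 lymph node cells. Ccr7, Cd40, Cd80 and Ccl22 stood at 0 in the 3 cells, which allows up to 45.7 CPM, against 361, 38.5, 69.2 and 38.5 CPM in the lymph node. Cd40 and Ccl22 were therefore below what these 3 cells could show. Cancer cell transcripts moved with this comparison. Krt8 and Krt18, keratins of epithelial and cancer cells, summed to 35 and 23 UMIs in the 2 deepest cells and to 1 in the cell of 5719 UMIs, and those 2 cells were among the 6% with the highest doublet scores. The 10 cancer genes summed to 3887 CPM in these cells (175 to 5234 per cell), against 88.4 in the lymph node Xcr1/Clec9a cells, and 7 of 10 had a UMI. Dcn, a stromal proteoglycan, had 76 UMIs in 2 of the 3 cells against 0 in the lymph node. In the cell of 5719 UMIs, with 1 keratin UMI, H2-Eb1 was 4371 CPM, Itgae 699, Ppt1 874 and Wdfy4 1399. The part of such transcripts in the levels was not tested.

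Within the primary tumour, the 3 Xcr1/Clec9a and 12 Cd209a cells differed in part of the cDC1 genes and in Il1b. Over the 911 genes counted, 22.4% were at least 2-fold higher and 22.8% at least 2-fold lower in Xcr1/Clec9a cells (median 0.11). Irf8 had 37 UMIs in 3 cells against 6 in 3 of 12 (2.09), and Ppt1 25 against 1 (3.65), the higher 2 of 4 cDC1 genes counted. Naaa (-0.22) and Id2 (-0.96) did not differ by 2-fold. Ccr7, Zeb2, Lyz2, Ptgs2 and Hilpda stood at 0 in the Xcr1/Clec9a cells, with 50, 34, 28, 29 and 51 UMIs in the Cd209a cells. Il1b had 2 UMIs in 1 of 3 cells against 227 in 12 of 12 (-6.95). Of 5 class II pathway genes counted, 5 were lower in the Xcr1/Clec9a cells (median -2.39), and of 4 cancer genes counted, 4 were higher.

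Cells with Fscn1, taken as those with at least 2 Fscn1 UMIs under the same limits but with no need for a dendritic cell gene, were 34 of the primary tumour and 72 of the lymph node. In the lymph node they had 638 CPM of Ccr7 and 377 of Ccl22, against 361 and 38.5 in the Xcr1/Clec9a cells. The Xcr1/Clec9a cells had more Cd86 (315 against 49.4 CPM), Cd80 (69.2 against 21.7) and H2-Eb1 (8494 against 813). Wdfy4 and Ppt1 stood at 8.12 and 23.0 CPM in the Fscn1 cells. Krt18 stood at 985 CPM in them, so this group held cancer transcripts and its levels are not those of dendritic cells alone. In the primary tumour, Ccl17 was 358 CPM in the Fscn1 cells against 2024 in the Cd209a cells, and Il1b 124 against 4688, while Ccl22 was 785 against 207.

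Alox12, the lipoxygenase in the title of the series, had 1 UMI in all 53 cells, in a lymph node Cd209a cell. Alox5ap, which passes arachidonic acid to another lipoxygenase, had 169 UMIs in 35 of 38 lymph node members and 26 in 8 of 15 primary tumour members. In Cd209a cells it did not differ by 2-fold between tissues (log2 ratio 0.06), nor between the 2 kinds in the lymph node (0.09). It was higher in lymph node than in primary tumour Xcr1/Clec9a cells (2.25), and lower in Xcr1/Clec9a than in Cd209a cells of the primary tumour (-2.10), where it rests on 6 UMIs in 2 of 3 cells. Of receptors for semaphorins, Nrp2 was found in 3 primary tumour members (12 UMIs) and in 2 lymph node members (9 UMIs), and Plxnc1 in 2 and 13 members.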

How the data were processed

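The deposited files hold unnormalised UMI counts of 22620 genes in each cell, which the authors made with Cell Ranger, 5.0.0 per the file headers and 2.1.1 per the submitters' processing notes, on GRCm38. The cell limits of the study had not been applied to these counts. No file names cell types, so each cell was placed by the UMI limits given in the report. The members and gene lists were chosen with earlier results of these data known.

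UMIs were summed over the cells of a group and library and divided by the group's total (CPM). Log2 ratios of CPM, with 0.5 count added to each sum, have exact intervals for the split of the 2 counts. A gene was counted in a comparison with at least 20 UMIs in both groups together, and was called past 2-fold. A count of 0 was allowed up to 3 counts, and a fold against 0 is a bound against 3 counts over the group. With 1 library per tissue, nothing in these values measures the spread between mice, and depth, given per group in the report, sets the precision. The steps were tested on simulated data with known folds.

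Besides list genes, the text names genes from the 8 highest and 8 lowest ratios per comparison, found in 10% or more of the higher group's cells, no cell with over 50% of its UMIs, and no gene of the rule, mitochondrial, ribosomal or unnamed model gene. Some genes of the lists and the ranking are not reported here. Levels had been planned for groups of at least 20 cells, which only the lymph node Xcr1/Clec9a cells reached. The other levels and ratios were added after the cell numbers were seen. Doublets were limited by the T, B, Siglech and C1q limits, and Scrublet scores (scanpy 1.11.5, 30 components) were used in an alternative only that removed the top 6% of each library. The study methods name DoubletFinder, and whether it was applied before deposit is not given in the sources used here.

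Alternatives were other limits on mitochondrial UMIs, genes, markers, C1q, T and B genes and depth, thinning of cells to 2000 UMIs before the rule, subsets by at least 2 UMIs, and gene minimums of 10 and 40 UMIs. Leaving out the tumour cells with over 20 keratin UMIs, the deepest cells, the cell high in Hspa1a or, for each gene, its highest cell was added after seeing the data. Python 3.11.15, numpy 2.4.6, scipy 1.17.1 and pandas 2.3.3 were used. Positions are from GENCODE on GRCm38, and promoters from RefSeq.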

Additional observations from a re-analysis of the deposited data

Results flagged for a closer look

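For 3 genes the ratio of Xcr1/Clec9a over Cd209a cells had opposite directions in the 2 tissues, past 2-fold in each with all cells included. Cxcl2 had a log2 ratio of 1.67 in the lymph node and -4.49 in the primary tumour, where 64 of its 91 UMIs in Cd209a cells came from 1 cell. Tmem176a had -4.40 in the lymph node and 1.60 in the primary tumour, where 16 of 18 UMIs came from 1 Xcr1/Clec9a cell and the ratio without it was 0.14. Hsp90aa1 had -1.88 in the lymph node and 2.16 in the primary tumour. In the lymph node 76 of 124 UMIs of the Cd209a cells came from 1 cell, and the ratio without it was -0.68. In the primary tumour 63 of 81 UMIs of the Xcr1/Clec9a cells came from 1 cell, and the ratio without it was 1.45. The primary tumour ratios rest on 3 Xcr1/Clec9a cells, 2 of which held over 20 keratin UMIs each. With 1 library per tissue, the difference between tissues was not tested.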

How the results depend on the processing

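No paired analysis was possible because each tissue had 1 library. Depth limited which cells and genes could be called. Thinning cells to 2000 UMIs before the rule left 8 primary tumour and 11 lymph node members. The lymph node share was then 0.146%, against 0.337% by the rule as given and 0.503% among cells with at least 2000 UMIs. Counts in this paragraph are genes at least 2-fold higher and then lower for Cd209a cells between tissues, Xcr1/Clec9a cells between tissues, the lymph node subsets and the primary tumour subsets, in that order. A minimum of 10 UMIs gave 151, 310, 663, 1008, 541, 508, 522 and 439, and one of 40 UMIs 20, 56, 237, 187, 111, 74, 77 and 82. These follow from the number of genes counted. Thinning gave 26, 79, 159, 212, 104 and 45, and 115 lower in the last comparison. Removing the top doublet scores or the keratin cells gave 185 higher for Xcr1/Clec9a cells between tissues and 48 and 124 for the primary tumour subsets. Without the deepest cell these were 259 lower, 43 and 115. In Cd209a cells between tissues, Ccl4 and Ier2 reversed to -0.028 and -0.15 without the Hspa1a cell or with T and B sums of 0, and to -0.17 and -0.086 with subsets by 2 UMIs. Hspa1a between the lymph node subsets reversed to 0.38, 0.49 and 0.62 under these 3. Lyz2 reversed to -0.35 with a marker sum of 3. Thinning reversed Ccl4 (-3.80), Clec10a (0.72), Egr1 (-0.86), Hmox1 (-3.18), Klf4 (-1.60) and Stmn1 (-1.15) between tissues, and Dusp1 (3.01), Egr1 (0.38), Hspa1a (3.55), Hspa1b (2.58), Itgax (0.17), Klf4 (2.45) and Marcksl1 (0.38) between the lymph node subsets. Without the cell of the higher group with the most UMIs of each gene, Ccl4 (-0.028), Ier2 (-0.15), Hmox1 (-1.25) and Stmn1 (-1.14) reversed between tissues, and Hspa1a (0.38) and Nr4a1 (2.79) between the lymph node subsets. For the other settings the causes of the reversals were not tested. Of the gene ratios over all settings, 2622 stayed within the counting interval, 181 moved outside it and 29 reversed.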

Other observations

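Receptors for microbial and cell-death signals also differed between the 2 kinds of cell in the lymph node. Of 5 such genes counted, 3 were at least 2-fold higher in Xcr1/Clec9a cells and 1 was lower, where 13.8% and 9.52% of the 1965 genes counted were higher and lower. Cd36, a scavenger receptor, had 35 UMIs in 15 of 25 cells against 1 in 9 Cd209a cells (log2 ratio 2.45), and Clec12a, an inhibitory receptor for uric acid crystals, 42 in 17 cells against 3 (1.48). Clec7a, the receptor for fungal beta-glucan, went the other way, with 35 in 13 of 25 cells against 83 in 6 of 9 (-3.35), and in Cd209a cells it did not differ by 2-fold between tissues (-0.60). Tlr3 and Tlr11, receptors known from cDC1, had 4 and 5 UMIs in the Xcr1/Clec9a cells and 0 in the Cd209a cells, which at this depth shows no difference. Havcr2 (0.61), Kit (0.41) and Btla (0.20) lay within 2-fold of the Cd209a cells.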
